A study of Mus musculus with 40 samples.

Results

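The loci described here are those of 6 transcription factor genes of blood and endothelium: Tal1, Lyl1, Lmo2, Gata2, Fli1 and Erg. Their members are the reporter fragments of the screen whose centre lay in the RefSeq gene body (mm10) or within 25 kb of it, with overlapping fragments merged into regions. This gave 493 of the 458486 fragment entries of the 40 libraries, which were 385 of 354627 different fragments and fell into 60 of 75060 regions. The rule uses gene positions and no measured value.

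TAL1 and LYL1 are basic helix-loop-helix proteins that bind E-boxes together with an E protein, LMO2 bridges them to GATA factors without binding DNA itself, and GATA2 binds GATA motifs. FLI1 and ERG are ETS proteins. These proteins occupy many of the same enhancers in blood stem and progenitor cells, including enhancers of each other's genes. TAL1 and LMO2 are needed for the first blood cells of the embryo.

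The screen asked which open-chromatin fragments act as enhancers at each step of blood formation. Mouse HM-1 embryonic stem cells carried 1 fragment each before an HSP68 minimal promoter and a Venus-YFP gene, all integrated at Hprt, a locus that is not functional in HM-1 cells and is repaired by the integration. All groups share this cell line, promoter and integration site, so each value is from 1 genetic background and from 1 position in the genome, away from the fragment's own gene. Cells were sorted at 5 stages: undifferentiated ES cells, FLK1+ haemangioblasts (HB), a first haemogenic endothelium (HE1, KIT+ TIE2+ CD41-), a second one (HE2, KIT+ TIE2+ CD41+) and haematopoietic progenitors (HP, KIT+ TIE2- CD41+). Each stage was split by YFP into Negative, Low, Medium and High gates in 2 replicates. The last 3 stages came from blast culture. A sort is 1 stage of 1 replicate. A fragment was positive in a sort where any gate above Negative listed it, and counts of positive and negative fragments below take it once per sort and sign, while entries count it once per library. Places are given in kb from the most upstream curated start site of the gene, with a minus sign upstream. The lists hold coordinates alone, so the identity of the sorted cells was not checked here.

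The libraries held 654 to 51146 fragments, and replicate 2 was shallower (97305 entries in all) than replicate 1 (361181). In HE1 replicate 1, 69.8% of the Negative fragments were also listed as Medium, and this held for 25 of the 42 Negative fragments of that sort at the 6 loci. In HP replicate 1 the Negative list shared no fragment with any positive list. The labels do not say whether replicates were separate cultures, so p-values of fits over sorts (limma) measure the spread between these sorts, which may be technical. Those of tests on fragment counts (Cochran-Mantel-Haenszel) measure counting error within these sorts.

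To show what was tested, 1 sequence is given for the region with most fragments of each locus, as the 300 bases around its centre (or the whole region where it is shorter, at Erg), read from GRCm38 on the plus strand. Capitals mark matches on either strand to the GATA motif AGATAA, to the E-box in its form CAGCTG or, equally, in the form written CAGATG, and to the ETS motif AGGAAG. The last sequence, from the Gata2 intron, was chosen after its values were seen.
Tal1, chr4:115052727-115053026, upstream of the gene: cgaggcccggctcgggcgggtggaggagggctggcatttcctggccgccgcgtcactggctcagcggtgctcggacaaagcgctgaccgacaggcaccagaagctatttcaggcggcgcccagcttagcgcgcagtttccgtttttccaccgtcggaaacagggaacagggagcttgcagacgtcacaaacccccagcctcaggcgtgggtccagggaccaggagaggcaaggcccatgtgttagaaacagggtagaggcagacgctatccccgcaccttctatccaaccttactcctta
Lyl1, chr8:84709169-84709468, in an Nfix intron downstream of Lyl1: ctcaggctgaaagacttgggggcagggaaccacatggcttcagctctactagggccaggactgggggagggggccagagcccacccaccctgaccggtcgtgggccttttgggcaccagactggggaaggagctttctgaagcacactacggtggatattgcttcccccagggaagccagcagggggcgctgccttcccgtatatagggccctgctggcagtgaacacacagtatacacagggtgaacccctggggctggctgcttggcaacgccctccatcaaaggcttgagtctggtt
Lmo2, chr2:104002800-104003099, downstream of the gene: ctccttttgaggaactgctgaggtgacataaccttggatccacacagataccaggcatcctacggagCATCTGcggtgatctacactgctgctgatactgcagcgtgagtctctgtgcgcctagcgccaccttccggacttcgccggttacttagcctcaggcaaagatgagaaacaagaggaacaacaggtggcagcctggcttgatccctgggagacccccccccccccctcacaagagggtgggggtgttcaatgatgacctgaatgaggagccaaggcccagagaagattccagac
Gata2, chr6:88189687-88189986, upstream of the gene: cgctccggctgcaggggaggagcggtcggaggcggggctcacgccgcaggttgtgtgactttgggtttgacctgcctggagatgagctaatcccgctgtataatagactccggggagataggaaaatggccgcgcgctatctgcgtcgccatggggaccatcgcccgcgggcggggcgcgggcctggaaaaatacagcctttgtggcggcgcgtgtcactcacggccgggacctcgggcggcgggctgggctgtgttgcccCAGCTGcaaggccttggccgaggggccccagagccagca
Fli1, chr9:32556300-32556599, upstream of the gene: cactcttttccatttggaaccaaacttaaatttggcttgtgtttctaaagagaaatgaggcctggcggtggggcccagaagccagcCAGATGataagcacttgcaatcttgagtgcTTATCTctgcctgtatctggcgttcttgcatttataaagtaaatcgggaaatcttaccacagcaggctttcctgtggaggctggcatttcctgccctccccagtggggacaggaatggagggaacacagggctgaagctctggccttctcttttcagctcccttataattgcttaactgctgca
Erg, chr16:95416995-95417143, in an Erg intron: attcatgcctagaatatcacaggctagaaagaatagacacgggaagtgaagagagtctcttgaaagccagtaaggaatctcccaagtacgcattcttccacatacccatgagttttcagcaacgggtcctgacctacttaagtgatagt
Gata2 intron, chr6:88203046-88203345, centred on its GATA and E-box element: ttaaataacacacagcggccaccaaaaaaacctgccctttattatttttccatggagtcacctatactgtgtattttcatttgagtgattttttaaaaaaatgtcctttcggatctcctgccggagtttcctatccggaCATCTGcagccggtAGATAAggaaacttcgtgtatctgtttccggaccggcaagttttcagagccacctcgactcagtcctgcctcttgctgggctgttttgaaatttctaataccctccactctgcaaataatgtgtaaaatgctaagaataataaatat

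None of these windows overlapped an exon of a curated RefSeq transcript. The Tal1 and Lyl1 windows held no match to the 3 motif groups, the upstream Gata2 window and the Lmo2 window held 1 E-box each, and the Fli1 window held 1 GATA motif and 1 E-box. The Gata2 intron window held an E-box and a GATA motif 8 bases apart. This pair, in the order CTG, then 7 to 9 bases, then GATA, is the arrangement bound by TAL1 and GATA proteins through LMO2. The Gata2 intron element is a known enhancer needed for blood stem cells to form.

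Across all 60 regions, 13 held the GATA motif in the 300 bases around the centre (21.7%, against 16.3% of 75043 regions of the series on named chromosomes). One of the 2 E-box forms was in 24 regions (against 39.3% of all), the ETS motif in 23 (38.3%, against 42.4%), the RUNX motif TGTGGT in 17 (28.3%, against 23.3%), and the TEAD motif GGAATG in 13 (21.7%, against 18.7%). The SOX motif ACAATG was in 8 (13.3%, against 16.1%), the AP-1 motif TGANTCA in 6 (10.0%, against 13.1%), and CTG with GATA 7 to 9 bases on in 7 (11.7%, against 10.8%). The spaced pair can share its GATA bases with the GATA motif. These shares are descriptions of letters in a window. Around a region shorter than 300 bases the window runs past its ends, so a match can lie outside the tested fragments. The 149 bp Erg region, for example, counts among those with a GATA motif, though its own sequence holds none.

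Fragments were unevenly spread over the 6 loci. Gata2 had 149 entries, Lyl1 126 and Tal1 123, which is 23.6, 23.6 and 18.8 entries per 10 kb of window. Fli1 had 53 entries, Erg 29 and Lmo2 13, or 3.10, 1.05 and 1.76 per 10 kb. At Tal1 and Gata2 a pair of regions held most entries, while the Fli1 and Erg entries were scattered over 16 and 12 regions, of which 7 and 9 held a single entry. A positive fragment was present in 48 of the 60 regions, against 84.0% of all regions of the series, and the other 12 had negative fragments alone. Only 3 of the 493 entries had their centre within 1500 bp of a curated start site.

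**Figure D1:**
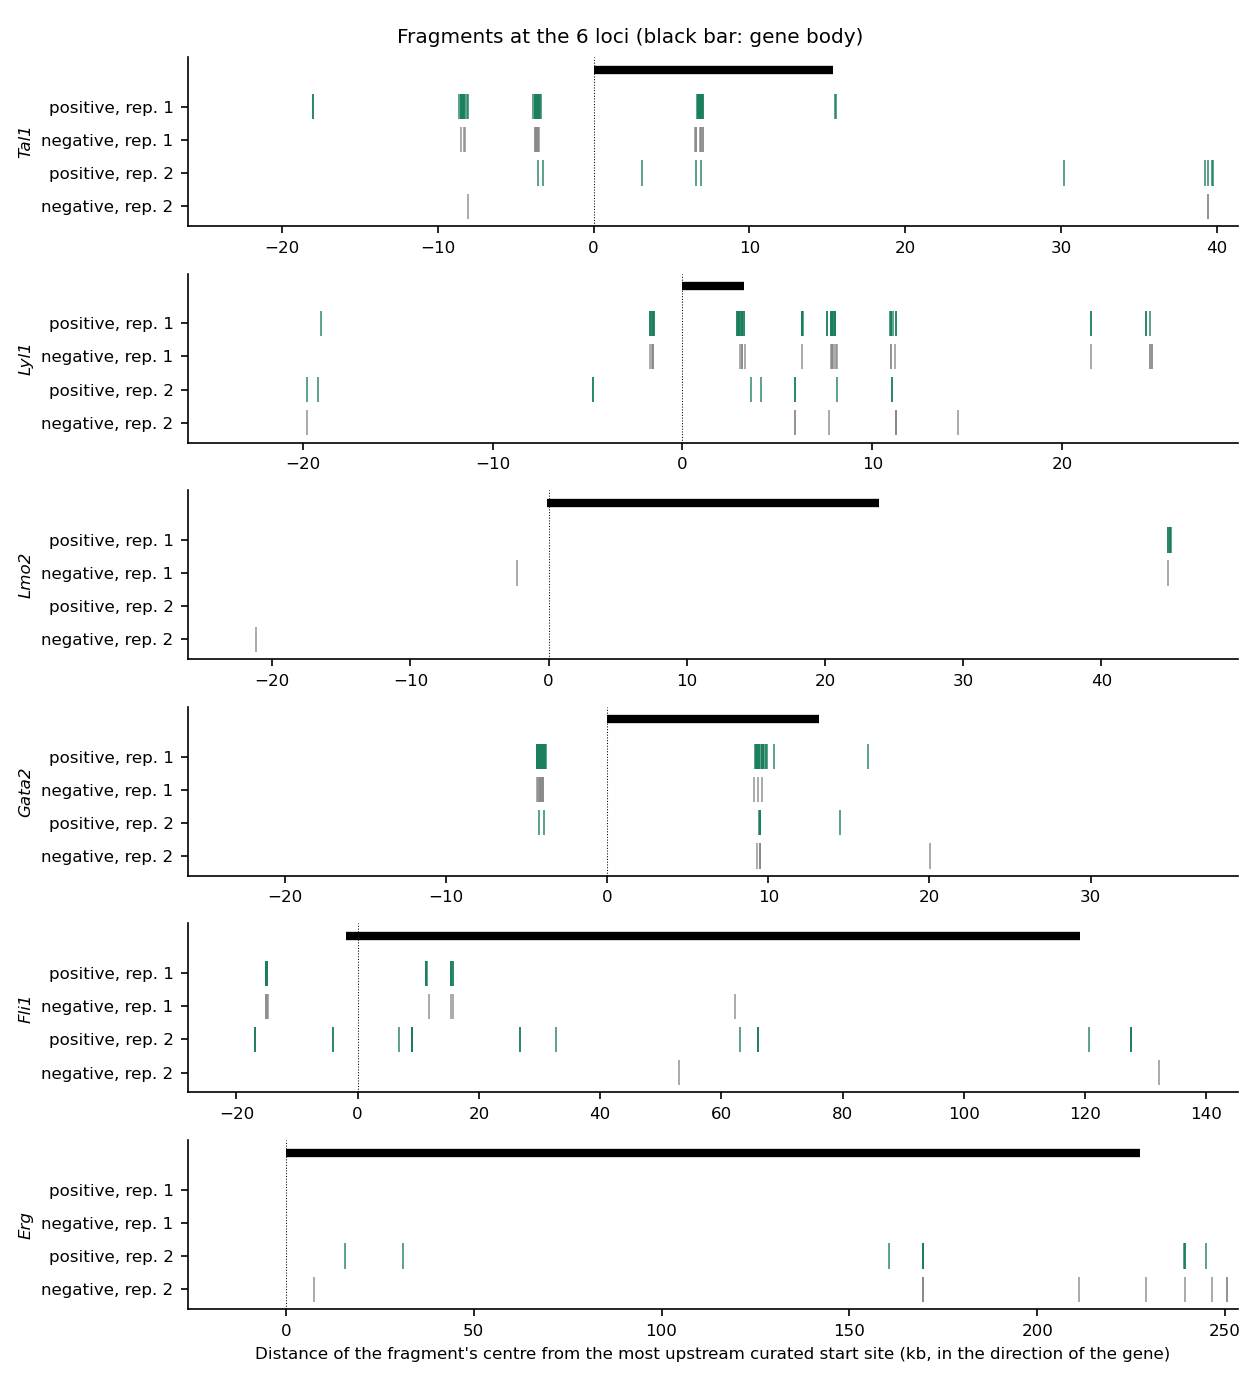
Position of every fragment at the 6 loci, as distance in kb from the most upstream curated start site of the gene, in 4 rows for the positive and negative fragments of each replicate. The 2 main clusters at Gata2 are centred at -4.05 and 9.59 kb, and Erg has no fragment in replicate 1.

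The overlap between replicates at these loci was near or above that of the series. Fragments from both replicates were in 7 of the 60 regions, against 9.28% of all regions of the series. Of the 18 regions with at least 5 entries, 7 were seen in both (3 at Tal1, 2 at Lyl1 and 2 at Gata2), against 29.8% of such regions in the series. At Fli1, 29 entries came from replicate 1 and 24 from replicate 2, and none of the 16 regions was seen in both. All 29 Erg entries came from replicate 2. Such a gene was uncommon: 1.01% of the 12795 genes with at least 20 fragments had none from replicate 1. Lmo2 had 12 of its 13 entries in replicate 1.

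At Gata2, the upstream region (chr6:88189390-88190285, between genes, centre at -4.05 kb) had 87 entries, 85 of them from replicate 1. Its positive fragments in replicate 1 were 7, 14, 21, 17 and 10 in the order ES, HB, HE1, HE2 and HP, beside 2, 1, 7, 2 and 3 negative ones. Replicate 2 added 1 positive fragment at ES and 1 at HE1. The region was thus positive at every stage. The depth of the sorts gives 6.91, 9.71, 25.4, 17.1 and 9.89 positive fragments, so that the count at HB was above and the count at HE1 below its share of the depth. Of its 72 positive entries, 31 were High, 26 Medium and 15 Low, where the depth of those libraries gives 25.5, 29.5 and 17.1.

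The Gata2 intron region (chr6:88202940-88204014, centre 9.59 kb after the first and 4.81 kb after the second start site) had 58 entries. Positive fragments in replicate 1 were 1, 8, 10, 11 and 7 in stage order, and the 3 negative ones were all from HE1, the sort whose Negative and Medium lists overlap. By depth, 3.71 of these 37 positive fragments would fall at ES and 5.21 at HB. In replicate 2 there were 0, 2, 1, 1 and 1 positive fragments in stage order, with 0, 2, 3, 2 and 1 negative ones. It was the only region of the 6 loci with positive fragments in both replicates at more than 2 stages (HB, HE1, HE2 and HP). At HE1, HE2 and HP this rested in replicate 2 on 1 identical fragment. That fragment was also listed as Negative in replicate 2 at each of these stages. The positive entries of the region were 18 Low, 17 Medium and 12 High, where depth gives 13.3, 17.8 and 15.9.

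Coverage of the GATA and E-box element differed between the replicates. In replicate 1, 12 of 40 entries covered the whole element (chr6:88203188-88203203), 11 of them positive (5 Low, 4 Medium, 2 High), and 26 of the 28 entries that did not cover it were positive too. The 11 positive entries over the element were 4 at HE1, 4 at HE2 and 3 at HP, with none at ES or HB. No negative entry covered it at ES or HB in replicate 1 either, so the element was not sampled there. In replicate 2, 13 of 18 entries were 1 identical fragment, chr6:88203213-88203524, which lacks the element, with 9 bases between the element's end and its own start. This fragment was listed in 13 of the 20 libraries of replicate 2, 9 of them positive and 4 Negative. In the series, 0.0699% of different fragments were listed in at least 13 libraries. The only entry of replicate 2 over the whole element was a Negative one at HB. Of the 40 entries of replicate 1, 32 overlapped this fragment by at least 1 base, and 30 of those were positive, so the replicates shared much of the intron but not positive fragments over the element.

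**Figure D2:**
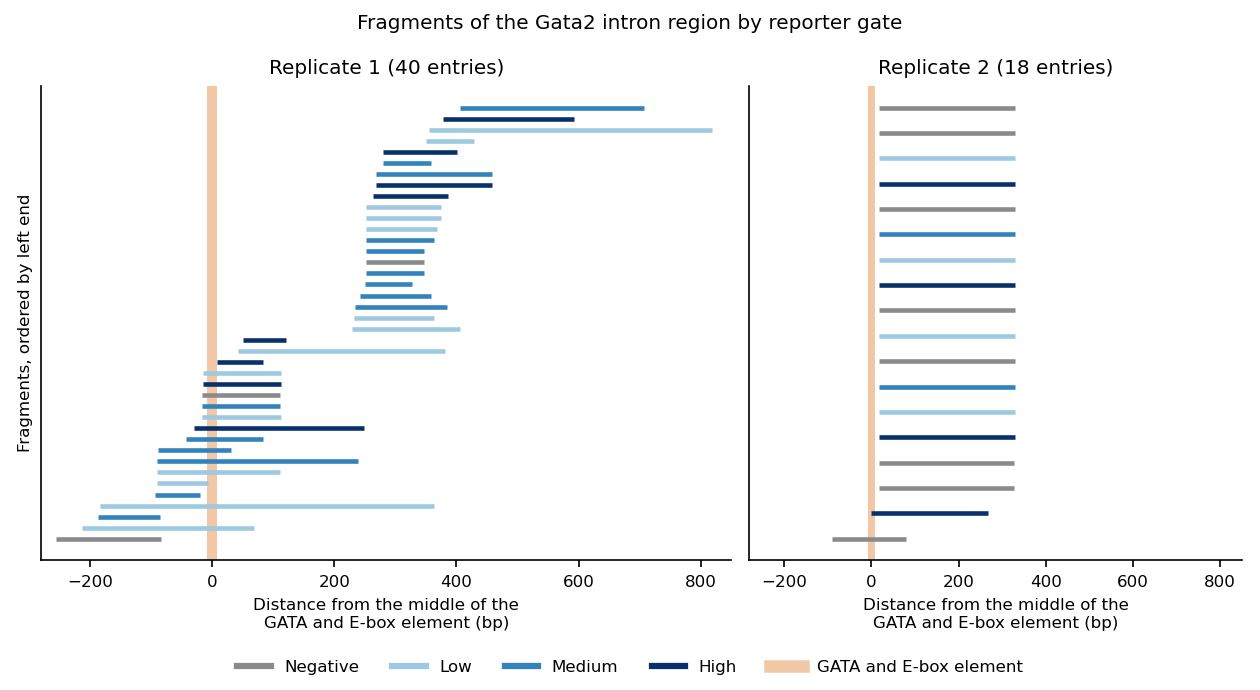
Every fragment entry of the Gata2 intron region as a line from its left to its right end, in bp from the middle of the GATA and E-box element (orange band), coloured by gate, for replicate 1 (40 entries) and replicate 2 (18 entries). The 12 entries of replicate 1 that cross the band include 11 positive ones, and the stack in replicate 2 is 1 fragment that starts beyond it.

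At Tal1, the main region (chr4:115052402-115053352, between genes, centre at -3.55 kb) had 58 entries, 56 of them from replicate 1. An enhancer of Tal1 active in endothelium and blood progenitors is known near this distance. Positive fragments in replicate 1 were 0, 9, 12, 14 and 7 in stage order, with 0, 2, 9, 2 and 1 negative ones. The depth of the sorts gives 4.21 at ES, and a count of 0 of 27717 positive fragments there allows up to 1.08 per 10000, below the 2.31 seen at HB. The HB share enters without its own counting error. No negative fragment was listed at ES either, so the region was not sampled there. Replicate 2 had 2 positive fragments, both at HE1. Of the 44 positive entries 8 were High, against 14.7 by depth, and 23 were Medium, against 17.8.

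A further Tal1 region (chr4:115062784-115063565, centre in a Tal1 exon, at 6.75 kb) had 36 entries. Its positive fragments in replicate 1 were 2, 6, 7, 8 and 2 from ES to HP, and replicate 2 had 2 at HE1. The region at -8.37 kb (chr4:115047665-115048453) had 17 entries, and its positive fragments were 2 at ES, 5 at HE1, 3 at HE2 and 3 at HP, all in replicate 1. No fragment had its centre between 15.6 and 30.2 kb after the start, the interval that holds the stem cell enhancer of Tal1. A region 39.4 kb downstream, named after its values were seen because the erythroid enhancer of Tal1 lies at that distance, had 6 entries, all from replicate 2, with 4 positive and 2 negative.

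Lyl1 lies in a stretch dense in genes, with Nfix, Nacc1 and Trmt1 inside the window, so a fragment near Lyl1 need not belong to it. The region with most entries (chr8:84708886-84709752, 35 entries) was in an Nfix intron, 7.86 kb from the Lyl1 start. Its positive fragments in replicate 1 were 2, 0, 12, 4 and 6 in stage order, where depth gives 2.40, 3.38, 8.84, 5.93 and 3.44, and replicate 2 had 1 at HE1. The region over the end of Lyl1 itself (chr8:84704080-84704825, 27 entries, centre in a Lyl1 exon) had another order: 8, 2, 5, 3 and 2 positive fragments, all in replicate 1, with ES the highest where depth gives 2.00. A region 11.1 kb away (chr8:84712301-84712828) had 18 entries, with 7 positive and 9 negative fragments, and 6 of the negative ones were from HP replicate 2.

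At Fli1, the region with most entries (chr9:32556157-32556743, between genes, centre at -15.0 kb) had 16 entries, all from replicate 1. Its 12 positive fragments were 6 at HE1, 2 at HE2 and 4 at HP, with none at ES or HB. The intronic regions at 11.5 and 15.6 kb (chr9:32529586-32530252 and chr9:32525530-32526099) had 5 and 7 entries, again all from replicate 1 and none from ES or HB. Depth gives 0.401 and 0.563 positive fragments at ES and HB for the region at 11.5 kb, and 0.501 and 0.704 at 15.6 kb. An intronic blood enhancer of Fli1 is known near the first of these distances. In replicate 2 the Fli1 fragments lay elsewhere. Chosen after their values were seen, examples are the region at 8.96 kb (5 entries of 3 different fragments at ES, HB and HE1, all positive) and the one at -16.9 kb (1 fragment listed as Low at ES, HE1 and HE2).

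The Lmo2 window held a single region with more than 1 entry (chr2:104002687-104003214). It lies at 45.0 kb, in an intron of 4931422A03Rik and 24849 bp from the start of Fbxo3, with 11 entries from replicate 1. Its positive fragments were 2, 0, 2, 3 and 3 in stage order, and 5 of the 10 were High. No fragment had its centre within the gene body of Lmo2, and the other 2 regions, at -21.2 and -2.28 kb, were 1 Negative entry each.

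At Erg, 15 of 29 entries were in 1 intronic region of 149 bp (chr16:95416995-95417143), and 14 of these were 1 identical fragment. It was listed in 14 of the 20 libraries of replicate 2, 9 positive and 5 Negative, and within HB and HP it was in all 4 gates. The other 11 regions had at most 3 entries each.

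Fragments with both signs were found at other loci too. Of the 385 different fragments at the 6 loci, 38 were listed in both a positive and a Negative library (9.87%), against 12.1% in the series. Fragments of replicate 2 had a median length of 279 bp when positive and 196 bp when negative, against 188 and 184 bp in replicate 1, and the whole series showed the same order in replicate 2 (267 and 203 bp). The part of length in the positive calls was not tested.

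The question of whether each locus was over-represented among positive fragments was answered by the share of positive fragments, per 10000 positive fragments of a sort, set against the share of negative ones. In replicate 1 the positive share of fragments was 85.7% at Gata2 (108 of 126 fragments, Wilson 95% interval 78.5 to 90.8), 76.4% at Tal1 (84 of 110, 67.6 to 83.3), 72.4% at Lyl1 (71 of 98, 62.9 to 80.3) and 72.4% at Fli1 (21 of 29, 54.3 to 85.3). In replicate 2 it was 47.1% at Gata2 (8 of 17, 26.2 to 69.0), 76.9% at Tal1 (10 of 13, 49.7 to 91.8), 50.0% at Lyl1 (11 of 22, 30.7 to 69.3), 91.7% at Fli1 (22 of 24, 74.2 to 97.7) and 45.8% at Erg (11 of 24, 27.9 to 64.9). So Gata2 was above, and Fli1 below, the count that its sorts give in replicate 1 (100 and 22.7 positive fragments), and both were on the other side in replicate 2 (12.0 and 16.7). These intervals cover counting error alone, and PCR can turn 1 molecule into several fragments.

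**Figure D3:**
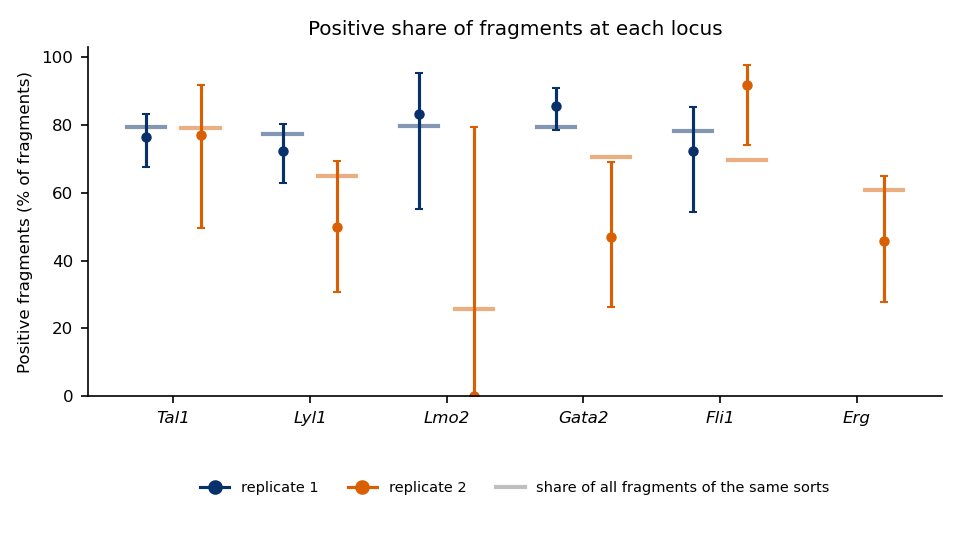
Positive fragments as a percentage of the fragments of each locus in replicate 1 (blue) and replicate 2 (orange), with Wilson 95% intervals, beside the percentage among all fragments of the same sorts (pale bars). Gata2 reaches 85.7% in replicate 1 and 47.1% in replicate 2, and Lmo2 in replicate 2 is 1 Negative fragment.

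None of the 5 loci with at least 20 fragments passed the test over the 10 sorts (limma, log2 of the share, with stage as covariate, adjusted over 12795 genes). The number of genes called was 0 of 12795 (0%), with 593 at an unadjusted p under 0.05, and 3 with the replicate number as a block. The log2 difference, positive minus negative, was 1.06 at Fli1 (SE 0.73, adjusted p = 0.997), 0.07 at Gata2 (SE 0.66, adjusted p = 0.997), 0.06 at Tal1 (SE 0.74, adjusted p = 0.999), -0.37 at Lyl1 (SE 0.73, adjusted p = 0.997) and -0.94 at Erg (SE 0.85, adjusted p = 0.997). The median of all genes was 0.38, and it ran from 0.01 to 0.51 over the alternatives. Relative to it Fli1 was higher and the other 4 loci lower, but by Cochran-Mantel-Haenszel, where the median was 0.01, Gata2 (0.27) and Fli1 (0.58) were both above it. The Fli1 value was -0.91 in replicate 1 alone and 2.15 in replicate 2 alone, with 5 sorts each. Without HE1 replicate 1 the differences were 1.08 at Fli1, 0.01 at Gata2, 0.09 at Tal1, -0.41 at Lyl1 and -0.99 at Erg. By fragment counts, with the 10 sorts as strata (Cochran-Mantel-Haenszel), 13 genes were called (0.102%), none of them among the 6 loci: Gata2 had 116 positive fragments where 112 were expected, Fli1 43 for 39.4, Tal1 94 for 97.6, Lyl1 82 for 90.1 and Erg 11 for 14.6, each with adjusted p = 1.00.

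Region by region the same held. Of 5530 regions with at least 20 fragments, 10 were called (0.181%), all with fewer positive fragments than expected, and none of the 6 tested regions of these loci was among them. Their ratio of observed to expected positive fragments ran from 0.943 at both Tal1 regions to 1.04 at the upstream Gata2 region, each with adjusted p = 1.00. Of the 6, 5 had positive fragments in both replicates of 1 stage, against 40.4% of the 5530 regions of that size. At Gata2 these were the upstream region at ES and HE1, and the intron at 4 stages. At Tal1 they were the regions at -3.55 and 6.75 kb, and at Lyl1 the Nfix intron, each at HE1 and so resting on HE1 replicate 1. Most of their replicate 2 fragments were identical to fragments listed as Negative in HE1 replicate 1. This held for both at 6.75 kb, 1 of 2 at -3.55 kb and the 1 at Lyl1. The 2 replicate 2 fragments of the upstream Gata2 region were in no Negative list. Each was identical to a positive fragment of replicate 1, but at another stage. The fragment chr6:88189585-88189768 was at ES in replicate 2 and HP in replicate 1, and chr6:88189884-88190096 at HE1 and HB. Agreement of a region between replicates at 1 stage thus need not be agreement on the same fragment at that stage. Without HE1 replicate 1 the ratios of the Tal1 regions were 1.01 and 1.03. Among all 48 positive regions of the loci the count was also 5, against 6.03% in the series.

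A second question was whether the loci gave more positive fragments at the blood-forming stages (HE1, HE2 and HP) than at ES and HB. In replicate 1, Fli1 had no positive fragment at ES (of 27717) or HB (of 38953), and 11 at HE1, 5 at HE2 and 5 at HP, or 1.08, 0.731 and 1.26 per 10000. Negative fragments of Fli1 in that replicate were 0, 1, 4, 2 and 1 from ES to HP, so few fragments of either sign were listed early. With 3 fragments as the limit over ES and HB together (0.450 per 10000), its later share of 1.00 per 10000 was 2.22 times that limit. The later share enters without its own counting error, so 2.22 is no lower bound. In replicate 2 Fli1 had 2, 5, 9, 1 and 5 positive fragments in stage order, or 2.22, 4.10, 2.59, 2.88 and 9.60 per 10000, so that early and late values overlapped. Of the 5 fragments at HP, 3 shared their ends to within 3 bases.

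None of the 5 tested loci passed the test of later against earlier stages when both replicates were fitted (limma, 4 early against 6 late sorts, 0 of 12795 genes called, 0%, with 239 at an unadjusted p under 0.05). The log2 difference, late minus early, was 1.71 at Fli1 (SE 1.07, adjusted p = 1.00), 0.79 at Erg (SE 1.14), 0.03 at Gata2 (SE 0.99), -0.58 at Tal1 (SE 1.07) and -1.02 at Lyl1 (SE 1.07), and the median of all genes was -0.07. Without HE1 replicate 1 these values were 1.72, 1.08, -0.02, -0.72 and -1.20. In replicate 1 alone, with 2 early and 3 late sorts, 458 of 11054 genes were called (4.14%), 449 of them higher (4.06%), and Fli1 was one of these (3.59, SE 0.40, adjusted p = 0.00795 by limma). Of the 29 fragments of Fli1 in replicate 1, 28 were from the later sorts, so it reached the minimum of 20 through the group in which it was high, and the call is not support for a difference. The fitted value rests on early sorts at 0 and is no bound. In replicate 2 alone Fli1 gave 0.43 (SE 0.91, adjusted p = 0.998 by limma). The difference between the replicates was not tested.

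At the other loci with fragments in replicate 1, the early and late shares of that replicate overlapped. Tal1 gave 4, 15, 26, 26 and 13 positive fragments from ES to HP in replicate 1, or 1.44, 3.85, 2.55, 3.80 and 3.28 per 10000, with ES the lowest. In replicate 2 it gave 1, 1, 8, 0 and 0. Gata2 gave 10, 22, 31, 28 and 17 in replicate 1, or 3.61, 5.65, 3.04, 4.09 and 4.29 per 10000, with HB the highest, and 1, 2, 3, 1 and 1 in replicate 2. Lyl1 gave 11, 3, 28, 14 and 15 in replicate 1, or 3.97, 0.770, 2.75, 2.05 and 3.78 per 10000, with HB the lowest. In replicate 2 Lyl1 gave 4, 1, 6, 0 and 0. Lmo2 had 2, 0, 2, 3 and 3 in replicate 1 and none in replicate 2, and Erg had 0, 5, 2, 1 and 3 in replicate 2. At HE2 replicate 2 a count of 0 allows up to 8.64 per 10000, above every positive share seen in replicate 1, so absence there was not detectable at this depth.

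**Figure D4:**
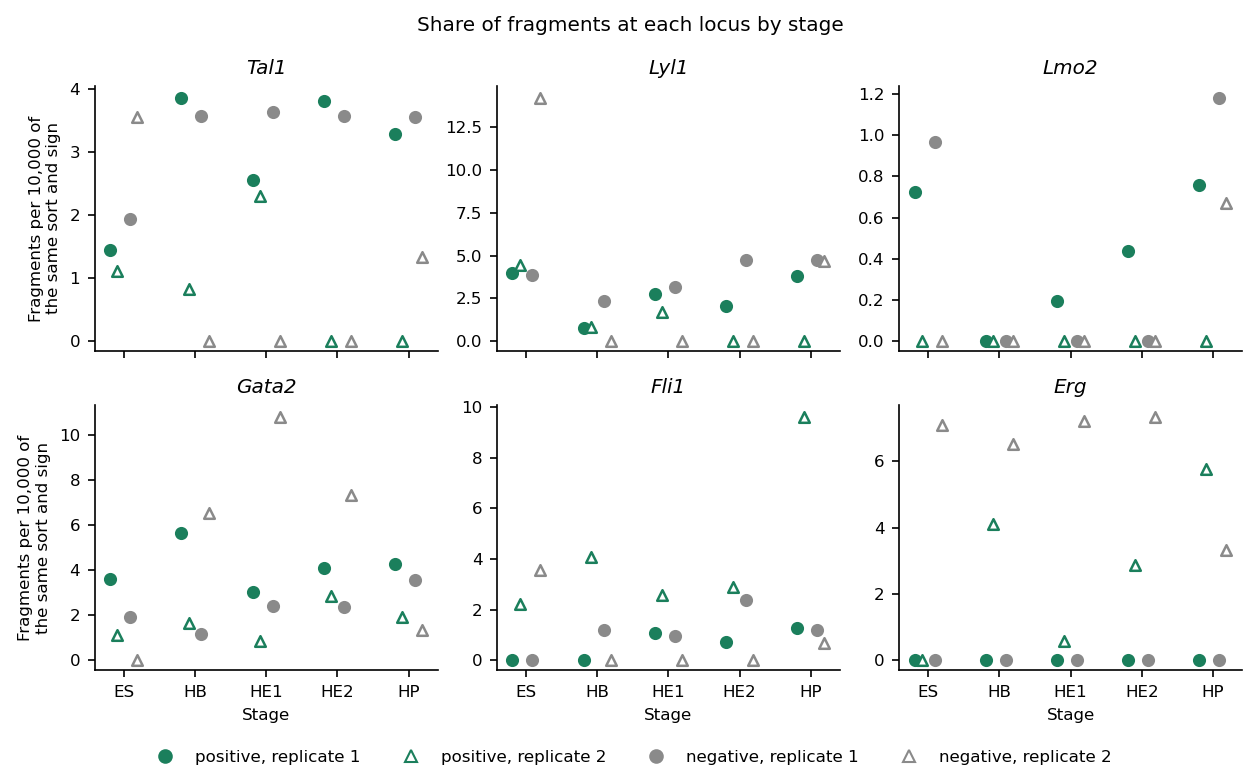
Fragments of each locus per 10000 fragments of the same sort and sign, by stage, for positive (green) and negative (grey) fragments of replicate 1 (filled circles) and replicate 2 (open triangles). Fli1 is at 0 for positive fragments at ES and HB in replicate 1 and at 2.22 and 4.10 in replicate 2.

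Of 20 partners, upstream regulators and targets of the 6 factors, such as Runx1, Spi1, Etv6, Meis1, Kdr, Tek and Cdh5, 15 had at least 20 fragments. None of the 15 was called higher or lower in either comparison. The median log2 difference of these 15, positive minus negative, was -0.10, with a range from -0.77 at Etv6 to 0.81 at Tcf3, against 0.38 over all genes. By Cochran-Mantel-Haenszel the medians were -0.02 and 0.01. For late minus early it was 0.58, with a range from -1.48 at Tcf3 to 1.31 at Ets1, against -0.07. In replicate 1 alone 0 of the 15 were called, against 4.14% of 11054 genes, and 15 genes are too few to set against that share. An unadjusted p under 0.05 (limma) was found for 3 of the 15 there, and for 1571 of the 11054 genes.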

How the data were processed

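Fragment lists of 40 reporter libraries were used (5 stages, 4 gates, 2 replicates). The authors used Trim Galore for trimming and Bowtie2 for alignment (mm10), then reduced well-mapped read pairs to unique fragments. The methods also describe removal of fragments found in a background library, selection for open chromatin of the matching stage, and separation of fragments near start sites from distal ones. Which of these filters the lists passed through, and the tool versions, are not stated in the sources used here. A stage-matched filter would affect counts of 0 at a stage, and a distal filter the count near start sites. Each deposited list holds fragment coordinates in base pairs and no other unit, so a fragment counts once per library and read depth is unknown. PCR without molecular identifiers means that intervals and limits cover counting error only.

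Genes came from RefSeq on GRCm38.p6. A gene's fragments were those centred in its body or within 25 kb. Shares per 10000 fragments of a sort and sign, plus 0.5 fragments at mean depth, were tested on a log2 scale with limma 3.58.1 in R 4.3.3 for genes with at least 20 fragments, with Benjamini-Hochberg adjustment at 0.05. Regions with at least 20 fragments (each counted once per sort and sign) were tested by Cochran-Mantel-Haenszel tests over the 10 sorts. Fragments are not independent samples there. The scripts were tested on simulated data. Gene counts were drawn at the same rate in every sort apart from the planted changes, with no spread between sorts beyond counting error. The shares called below need not hold for the real sorts. At this depth the limma fit of later against earlier stages made no call on the 4-fold changes planted there. That of positive against negative called 57% of planted increases and 3.7% of decreases, and also 14 unchanged genes. Cochran-Mantel-Haenszel tests per gene called 83% and 64.3%, with 1 unchanged gene. A locus that did not pass is therefore not shown to be unchanged. Limits for a count of 0 are 3 fragments, and intervals are Wilson at 95%.

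The regions named are the 3 with most fragments of a locus and those positive in both replicates of 1 stage; at Gata2 and Erg, regions of 1 to 3 entries were left to counts. Partners are named where they pass the test, and otherwise for the ends of a range. The members and lists were chosen with earlier results of these data known. Sorts of the same replicate number deviated together from the stage means (correlations of 0.26 to 0.40 over 10 pairs for positive and 0.19 to 0.53 for negative shares), so the numbers pair the sorts. The main limma fits left this pairing out, and the replicate block was an alternative. Expected counts spread a region's fragments by the depth of the libraries. Alternatives covered the pseudocount, filters, flank, gene span, near-identical ends, gates, replicate block and left-out replicates or sorts.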

Additional observations from a re-analysis of the deposited data

Results flagged for a closer look

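In 18 groups of 4 to 10 sorts, the share of each locus was searched for a sort far from the rest by Dixon's criterion, and 4 groups met it. Its nominal rate of about 1 in 20 groups is for normally distributed values and does not hold for shares from so few fragments. A group with only 1 sort above 0 always meets it, as at Erg and Lmo2 below. The number of groups is thus no measure of an excess. The negative share of Lyl1 at ES replicate 2 was 14.2 per 10000 against 4.74 in the next sort, from 4 fragments, 2 of which shared both ends to within 5 bp. The positive share of Fli1 at HP replicate 2 was 9.60 per 10000 against 2.88 in the next of the 6 later sorts, from 5 fragments, of which 3 lay at chr9:32475202-32475491. The positive share of Erg at HB replicate 2 was 4.10 per 10000 against 0 in the other 3 early sorts, from 5 fragments. The positive share of Lmo2 at ES replicate 1 was 0.722 per 10000 against 0 in the other 3 early sorts, from 2 fragments. Each rests on at most 5 fragments.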

How the results depend on the processing

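Of 240 alternative values for single loci and regions, 205 kept their direction and their side of the threshold, 34 changed direction, none of these past the threshold, and 1 passed it: later against earlier stages at Fli1 without replicate 2 (3.59, adjusted p = 0.00795 by limma). For positive against negative fragments, Tal1 (0.06) turned to -0.03 with a pseudocount of 2, -0.21 with 10 kb flanks, -0.37 with Medium and High alone, -0.09 without fragments of both signs, and -0.27 by Cochran-Mantel-Haenszel. Gata2 (0.07) turned to -0.05, -0.02 and -0.55 with the pseudocount of 2, with Medium and High, and without fragments of both signs. Lyl1 (-0.37) turned to 0.07 with 50 kb flanks. For later against earlier stages, Tal1 (-0.58) turned to 0.74 and 0.40 with flanks of 10 and 50 kb, and Gata2 (0.03) to -0.07 with 50 kb flanks, -0.07 with Medium and High, and -1.21 without fragments of both signs. The cause was not tested.

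Leaving out a replicate or a sort gave, for positive against negative, -0.32 to 0.40 at Tal1, -0.21 to 0.86 at Gata2, -0.76 to 0.10 at Lyl1, -0.91 to 2.15 at Fli1 and -1.54 to -0.49 at Erg. For later against earlier stages it gave -0.90 to 0.41 at Tal1, -0.33 to 0.40 at Gata2, -1.83 to 0.62 at Lyl1, 0.43 to 3.59 at Fli1 and 0.33 to 1.18 at Erg. The ratios of the Tal1 regions at -3.55 and 6.75 kb ran from 0.937 to 1.01 and from 0.933 to 1.03, both highest without HE1 replicate 1, a setting chosen after seeing the data.

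The number of genes called for positive against negative (0) was 2 with no filter, 3 with the replicate block and 13 by Cochran-Mantel-Haenszel. For later against earlier stages (0) it was 2 with no filter, and 0 to 458 with a replicate or sort left out, the highest without replicate 2. The number of regions called (10) was 17 and 5 with minimums of 10 and 50 fragments, 0 with near-identical ends collapsed, 23 with no replicate block (replicates of a stage pooled), and 5 to 14 with a replicate left out, 14 of them without replicate 1 and 5 without replicate 2. The block changed no call at the 6 loci. With it the genes at an unadjusted p under 0.05 (limma) rose from 593 to 1339 for positive against negative. For later against earlier stages they rose from 239 to 863, and the unadjusted p of Fli1 went from 0.117 to 0.0265 (limma, adjusted p = 0.736 with the block).

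Counts limited these comparisons. Lmo2 had too few fragments for a test, Erg had none in replicate 1, and the smallest sorts of replicate 2 held 3471 positive and 2727 negative fragments, so a count of 0 there allows several fragments per 10000. A fragment counts once however many reads or cells carried it. The share of other genes' regulatory fragments in the windows, above all at Lyl1, was not measured. The lists do not show how many cells were sorted.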

Other observations

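Some entries lay near the 25 kb limit. Between 20 and 25 kb from the gene bodies lay 27 of the 493 entries, 12 of them at Lmo2, and between 25 and 30 kb lay a further 25 that were not counted, 24 of them at Lyl1. Of the entries at the 6 loci, 0.609% had their centre within 1500 bp of a curated start site, against 1.83% in the series. The spaced pair of CTG and GATA was also covered by 3 entries at Tal1 (chr4:115048356-115048371) and by 3 and 1 entries at Fli1 (chr9:32525734-32525748 and chr9:32530185-32530199).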
